A study of Mus musculus with 12 samples.

Results

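Expression of 50 mouse genes that drive cells through mitosis was measured in cultured neural progenitor cells that lost lamin B1, a protein of the nuclear lamina. The genes were taken as a list of mitotic entry, checkpoint, exit and condensin genes, and all 50 were found once among the 42802 features of the day 9 table and once among the 43309 features of the day 5 table. The cells came from C57BL/6 mice and carried the Ai3 allele, a Cre-dependent EYFP reporter. The cKO cells were LaminB1 fl/fl and the WT cells LaminB1 +/+, and both received a lentivirus with Cre under a Sox2 promoter (pSox2-Cre), so the WT cells also carried Cre and the reporter. Cells grew in DMEM/F12 with modified N2/B27 and EGF and FGF-2 at 10 ng/ml each, and EYFP+ cells were sorted at day 9 or day 5 after the virus. Polyadenylated RNA was sequenced in 12 libraries, 3 for each of cKO day 9, WT day 9, cKO day 5 and WT day 5. Nothing in the labels tells whether a replicate is a culture or animal of its own, so the p-values measure the spread between these samples and that spread may be technical.

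A cell enters mitosis when the kinase CDK1, bound to cyclin A or cyclin B, is freed from inhibitory phosphorylation. Polo and Aurora kinases then build the spindle, condensins and topoisomerase II compact the chromosomes, and the spindle checkpoint holds anaphase back until every chromosome is attached. The anaphase-promoting complex, a ubiquitin ligase, ends mitosis by marking cyclin B and securin for destruction, and the FOXM1 and MYBL2 transcription factors with the MuvB complex drive many of these genes late in the cycle. Neural progenitors that divide express this program, and cells that leave the cycle to differentiate switch most of it off.

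Lmnb1, the targeted gene, had 34.3, 32.8 and 39.4 CPM in the cKO libraries at day 9, against 156, 209.7 and 188 CPM in the WT libraries. At day 5 it had 37.8, 40.7 and 45 CPM in cKO, against 288, 255 and 247 CPM in WT. The groups did not overlap at either day. CPM here are counts scaled to a common library size by TMM, a scaling that is robust to a few very abundant genes. Library totals were 13315273, 22988447 and 13709733 counts in cKO and 24412935 to 24662809 counts in WT at day 9, and 26720476 to 28540036 counts in cKO and 29460342 to 32127629 counts in WT at day 5. Structural RNA features, chiefly Gm42418, took 69.69%, 0.3494% and 68.33% of counts in the cKO day 9 libraries and 15.71%, 34.56% and 17.7% in the WT day 9 libraries. At day 5 they took 14.12% in cKO replicate 2 and at most 0.5062% in the other 5 libraries. Of the counts outside structural RNA, the 50 mitotic genes together took 0.05694%, 0.06671% and 0.0693% in the cKO day 9 libraries, against 0.3272%, 0.385% and 0.3038% in the WT day 9 libraries. At day 5 their share was 0.6418%, 0.6876% and 0.6243% in cKO and 0.6873%, 0.5939% and 0.5755% in WT. The cKO and WT shares of counts thus lay apart at day 9, with cKO replicate 2 between the other cKO libraries, and overlapped at day 5. Taken from TPM (abundance per transcript length) outside structural RNA, the shares were 0.01784%, 0.06757% and 0.02213% in the cKO day 9 libraries. They were 0.269%, 0.307% and 0.2645% in the WT day 9 libraries. By that measure cKO replicate 2 stood above the other cKO libraries and below every WT library. The part of structural RNA in this was not tested.

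Most of the 50 genes were lower in cKO cells at day 9, and none of them passed the test at day 5. At day 9, 45 of the 50 genes fell and 0 rose, with a median log2 fold change of -2.53 and a range of -4.12 to 1.31, while the median of all genes tested was 0.01. Among all 14617 genes tested at day 9, 22.6% were called lower and 21% higher, 43.6% in all (edgeR's quasi-likelihood test with Benjamini-Hochberg adjustment over all genes tested, threshold 0.05). The cKO and WT libraries did not overlap, with cKO lower, for 43 of the 50 genes, against 30.2% of all genes tested. Another 27.6% of all genes tested did not overlap with cKO higher, so groups that lay apart, as described for genes below, were common at day 9. The 5 genes that did not pass were Smc2, Smc4, Ncapd3 and Ncapg2, which encode condensin subunits, and Mki67, which encodes the proliferation marker Ki-67. RNA from a mixed culture cannot tell fewer dividing cells from less of each transcript per dividing cell.

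**Figure D1:**
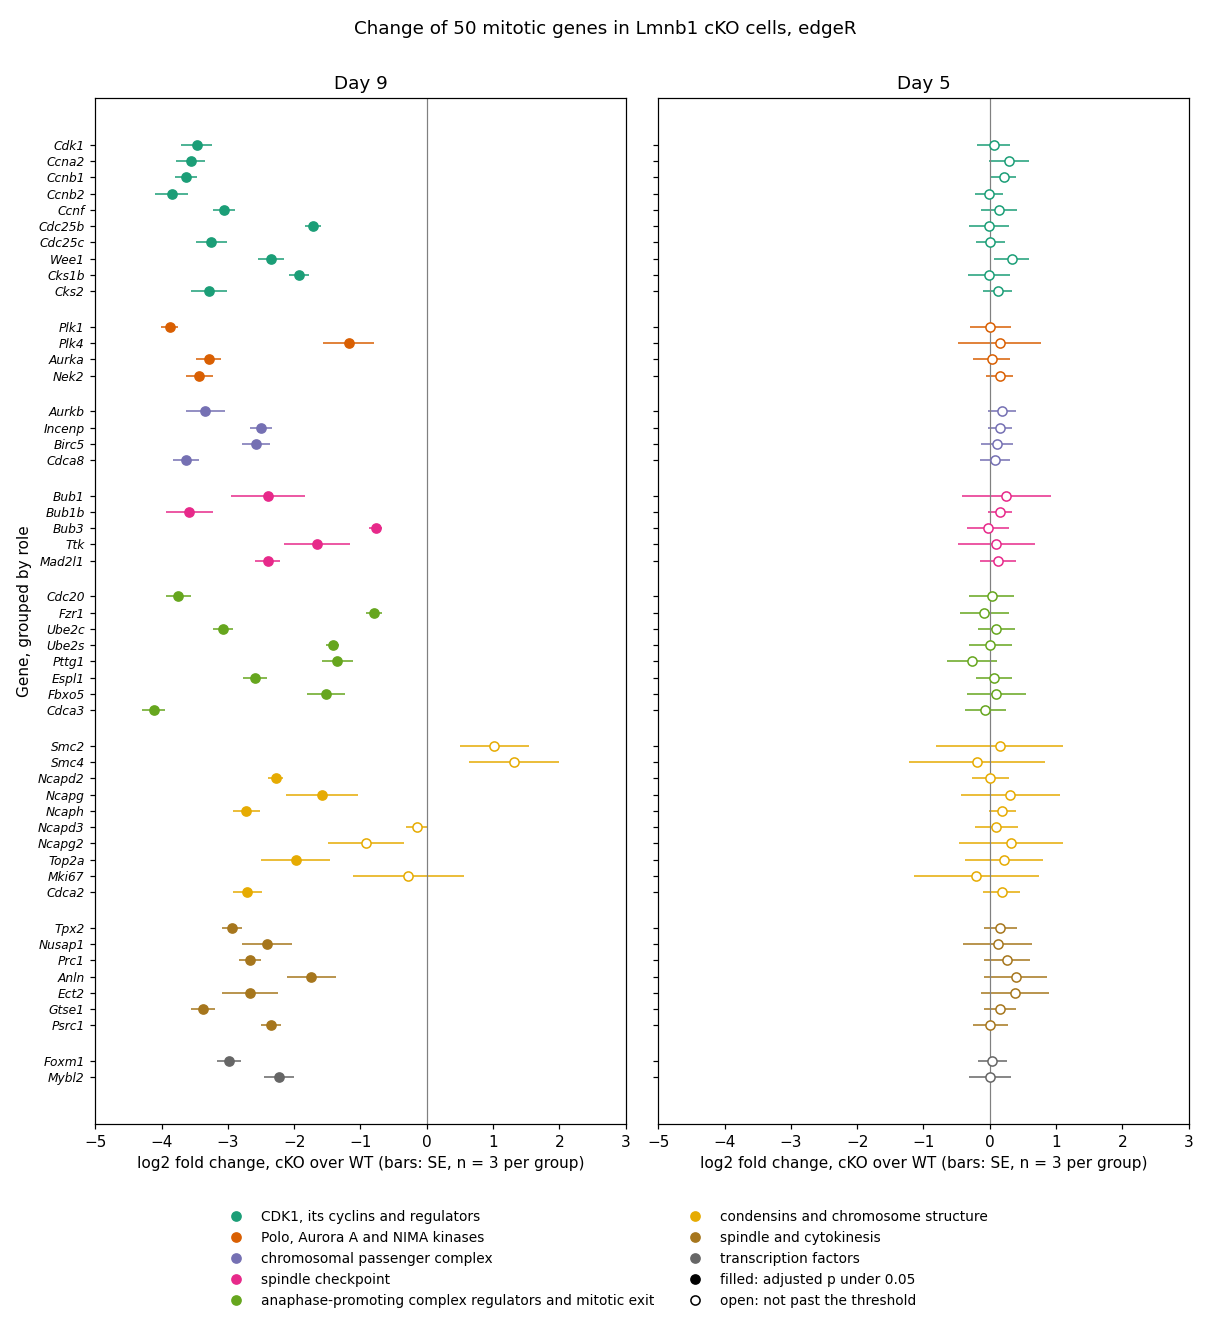
Log2 fold change of cKO over WT (x axis) for the 50 genes (y axis), grouped by role, at day 9 on the left and day 5 on the right; bars are standard errors of the edgeR fit with 3 libraries per group, and filled points passed the threshold. At day 9, 45 points are filled and all lie below 0, and at day 5 none is filled and all lie between -0.27 and 0.39.

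The promoters of these genes carry short elements that textbook accounts tie to late cell cycle transcription: the cell cycle genes homology region, bound by MuvB, and the CCAAT box, bound by NF-Y. The first was searched here as TTTGAA and, in its variant form, as TTCGAA. RefSeq start sites on GRCm38.p6 gave a window of 300 bases, 250 before and 50 after the start, for 41 of the 50 genes. A script searched both strands (TTCGAA reads the same on both, and the motifs were counted also where they overlap). TTTGAA lay in a window of 25 of the 41 genes (61%), against 20.2% of the 27025 genes with a window, and TTCGAA in 6 (14.6%), against 1.8%. At least 2 copies of CCAAT lay in a window of 22 genes (53.7%), against 13.3% of all genes. A window with either form of the homology region that also held a CCAAT box was found for 25 genes (61%), against 8.61% of all genes. No window was given for Ccna2, Cdc25c, Wee1, Aurkb, Incenp, Smc4, Cdca2, Tpx2 and Foxm1. A match describes letters in the window and is no measure of binding. Shown are the 3 windows with the most matches, Top2a, Ube2c and Cks1b, then Ccnb2, a cyclin B gene, and, for contrast, Fzr1, which fell among the least at day 9 and has neither form of the homology region. Capitals mark the searched motifs on either strand (on the reverse strand the homology region reads TTCAAA and the box reads ATTGG), and each line runs 5′ to 3′ along the gene's strand.
Top2a: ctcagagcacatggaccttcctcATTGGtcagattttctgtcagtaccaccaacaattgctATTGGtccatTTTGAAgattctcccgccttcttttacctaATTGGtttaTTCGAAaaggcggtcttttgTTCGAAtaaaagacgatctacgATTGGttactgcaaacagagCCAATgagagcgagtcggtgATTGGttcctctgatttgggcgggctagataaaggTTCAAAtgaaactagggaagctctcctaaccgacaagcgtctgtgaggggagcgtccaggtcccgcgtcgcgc
Ube2c: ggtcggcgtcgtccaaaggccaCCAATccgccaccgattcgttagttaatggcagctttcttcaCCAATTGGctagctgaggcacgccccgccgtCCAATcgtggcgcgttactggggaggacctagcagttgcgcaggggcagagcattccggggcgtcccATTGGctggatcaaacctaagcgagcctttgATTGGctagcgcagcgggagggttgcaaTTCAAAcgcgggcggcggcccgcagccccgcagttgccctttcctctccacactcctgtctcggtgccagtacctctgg
Cks1b: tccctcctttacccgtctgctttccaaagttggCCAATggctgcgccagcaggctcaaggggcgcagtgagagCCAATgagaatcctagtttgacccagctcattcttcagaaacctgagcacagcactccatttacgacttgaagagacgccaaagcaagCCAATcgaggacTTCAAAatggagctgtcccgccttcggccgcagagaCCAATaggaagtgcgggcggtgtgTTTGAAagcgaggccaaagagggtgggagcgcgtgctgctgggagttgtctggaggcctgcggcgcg
Ccnb2: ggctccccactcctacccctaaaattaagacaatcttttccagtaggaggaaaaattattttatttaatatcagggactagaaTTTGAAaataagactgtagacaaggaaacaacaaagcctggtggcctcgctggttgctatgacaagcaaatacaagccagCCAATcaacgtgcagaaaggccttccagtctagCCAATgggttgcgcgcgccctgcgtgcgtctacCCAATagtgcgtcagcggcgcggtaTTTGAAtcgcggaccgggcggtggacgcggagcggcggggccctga
Fzr1: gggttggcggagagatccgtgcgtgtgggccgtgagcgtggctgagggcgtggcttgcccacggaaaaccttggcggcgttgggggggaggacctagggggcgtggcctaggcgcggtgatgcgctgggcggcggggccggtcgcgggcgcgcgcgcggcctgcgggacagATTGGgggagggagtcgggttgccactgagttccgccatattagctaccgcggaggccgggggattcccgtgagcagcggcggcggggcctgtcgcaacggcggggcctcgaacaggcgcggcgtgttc

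These windows lie at chr11:99024140-99024439 on the minus strand (Top2a), chr2:164769679-164769978 on the plus strand (Ube2c), chr3:89418242-89418541 on the minus strand (Cks1b), chr9:70421505-70421804 on the minus strand (Ccnb2) and chr10:81378321-81378620 on the minus strand (Fzr1). The Top2a window holds 10 matches, of which 6 are CCAAT boxes, and the Ube2c window 7, of which 6 are such boxes. Cks1b has 6 matches, Ccnb2 has 5 and Fzr1 has 1, a CCAAT on the reverse strand. The order of matches is not the order of the changes. Plk1, with the second largest fall, has 2 matches in its window, and Mybl2 and Birc5, which both fell, have 0. Bub3, with the smallest fall among those called, has 3 in each of its windows, and Mki67, which was not called, has 5.

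CDK1, its cyclins and its direct regulators were all lower in cKO cells at day 9, 10 of 10 with a median log2 fold change of -3.27. Cdk1, the kinase at the centre of mitotic entry (chromosome 10, 69335146 to 69352938, GENCODE M21 on GRCm38), had 4.36, 7.95 and 7.88 CPM in the cKO libraries, against 69.6, 87 and 72.9 CPM in WT. Every cKO library lay far below every WT library, 11.1-fold lower in the fit (log2 fold change -3.47 ± 0.23 SE, adjusted p = 3.52e-05). Ccnb1, the main mitotic cyclin, had 7.01, 7.97 and 9.29 CPM in cKO, against 84.1, 119 and 97.4 CPM in WT. The 3 cKO values were close together, and the fall was 12.4-fold (-3.63 ± 0.17, adjusted p = 8.85e-06). Ccna2, the cyclin that acts in S and G2 phase, had 5.77, 8.1 and 7.04 CPM in cKO, against 72, 109 and 70.3 CPM in WT. It fell 11.8-fold with no overlap between the groups (-3.56 ± 0.22, adjusted p = 3.13e-05). The remaining 7 fell by 1.71 on the log2 scale (Cdc25b, a phosphatase that activates CDK1) to 3.85 (Ccnb2, the second cyclin B). Among them, both the activating phosphatase gene Cdc25c (-3.25 ± 0.23) and Wee1, the kinase that inhibits CDK1 (-2.35 ± 0.20), were lower. Of the small CDK-binding subunits, Cks2 fell by 3.29 and Cks1b by 1.93 on the log2 scale. The cKO and WT libraries overlapped for none of the 10, with cKO lower, against 30.2% of all genes tested at day 9.

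Polo, Aurora A and NIMA kinases were lower in 4 of 4 cases. Plk1, the kinase that drives centrosome maturation and mitotic entry, had 3.74, 4 and 3.94 CPM in cKO day 9 libraries, against 55.9, 64 and 53.7 CPM in WT. With 3 nearly equal cKO values, its fall of 14.8-fold had the smallest adjusted p of the 50 genes (-3.88 ± 0.13, adjusted p = 4.81e-06). Aurka, the spindle pole kinase Aurora A, had 2.65, 3.65 and 4.36 CPM in cKO, against 34.3, 39.3 and 31.9 CPM in WT (-3.29 ± 0.19, adjusted p = 1.66e-05). Nek2, which acts in centrosome separation, had 2.03, 2.44 and 2.25 CPM in cKO, against 21.1, 30.7 and 22 CPM in WT (-3.43 ± 0.20, adjusted p = 1.72e-05). For both kinases the groups lay apart. Plk4, the centriole duplication kinase, stood nearer the threshold, with 2.18, 1.94 and 1.55 CPM in cKO, against 5.79, 4.95 and 2.15 CPM in WT. Its lowest WT library fell within the cKO range, and its call (-1.18 ± 0.39, adjusted p = 0.0392) was lost without any of the libraries except WT replicate 3, at -0.92 to -1.28 with adjusted p from 0.0835 to 0.127.

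All 4 subunits of the chromosomal passenger complex, which corrects faulty attachments and later directs cytokinesis, were lower. Incenp, its scaffold, had 9.35, 9.93 and 12.7 CPM in cKO day 9 libraries, against 53.2, 71.3 and 55.5 CPM in WT (-2.50 ± 0.17, adjusted p = 3.26e-05). Cdca8, which encodes borealin, had 3.27, 4.25 and 5.49 CPM in cKO, against 49.6, 61.1 and 50.9 CPM in WT (-3.63 ± 0.20, adjusted p = 1.22e-05). Birc5, which encodes survivin, had 4.68, 4.17 and 7.04 CPM in cKO, against 29, 34.6 and 28.4 CPM in WT (-2.57 ± 0.21, adjusted p = 7.78e-05). The groups lay apart for each of the 3 genes. Aurkb, the kinase of the complex, fell by 3.34 on the log2 scale. Summed over the 4 genes, the cKO libraries held 18.6 to 28 CPM and the WT libraries 155 to 197 CPM.

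Spindle checkpoint genes fell in 5 of 5 cases, by widely different amounts. Bub3, which carries BUB1 and BUBR1 to kinetochores (chromosome 7, 131560222 to 131571895), had 40.7, 48.9 and 41.1 CPM in cKO day 9 libraries, against 75.1, 75.2 and 73.7 CPM in WT. The groups lay apart, yet the fall was 1.71-fold (-0.77 ± 0.10, adjusted p = 0.000866), the smallest among the 45 genes called. Bub1b, which encodes the checkpoint kinase-like protein BUBR1, had 2.65, 4.02 and 7.32 CPM in cKO, against 47.4, 64.6 and 53.8 CPM in WT, a fall of 12-fold (-3.58 ± 0.35, adjusted p = 0.000493). Mad2l1, the MAD2 subunit that binds CDC20, had 3.9, 5.08 and 5.77 CPM in cKO, against 23, 31.8 and 23.9 CPM in WT (-2.40 ± 0.19, adjusted p = 7.25e-05). Neither gene's groups overlapped. The checkpoint kinases Bub1 (-2.40 ± 0.56, adjusted p = 0.0118) and Ttk (-1.66 ± 0.50, adjusted p = 0.0286) had the widest errors of the group. The call of Ttk was lost without cKO replicate 1, 2 or 3 or WT replicate 1 or 2, at -1.10 to -1.84 with adjusted p from 0.0567 to 0.107, and that of Bub1 without cKO replicates 1 and 3 together (-2.16, adjusted p = 0.189).

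Regulators of the anaphase-promoting complex and of mitotic exit fell in 8 of 8 cases. Cdca3, an F-box-like protein gene that triggers mitotic entry (chromosome 6, 124829547 to 124833701), had 3.74, 4.88 and 5.21 CPM in cKO day 9 libraries, against 78.3, 92.9 and 72.6 CPM in WT. That fall of 17.4-fold was the largest of the 50 genes (-4.12 ± 0.17, adjusted p = 5.34e-06). The alternative activators of the ligase differed: Cdc20, which works in metaphase, fell by 3.75 on the log2 scale, while Fzr1, which encodes CDH1 and works in late mitosis and G1, fell by 0.80. Fzr1 had 27.1, 33.3 and 32.4 CPM in cKO, against 59.1, 51.8 and 51.5 CPM in WT, with no overlap (adjusted p = 0.00154). The ubiquitin-conjugating enzymes that supply the ligase also fell by unlike amounts. Ube2s, which extends ubiquitin chains, had 38, 44 and 41.4 CPM in cKO, against 116, 110.5 and 104 CPM in WT (-1.42 ± 0.10, adjusted p = 3.48e-05), and Ube2c, which starts them, fell by 3.07 on the log2 scale. Neither the Fzr1 nor the Cdc20 change was tested against the other. Pttg1 (securin), Espl1 (separase) and Fbxo5 (EMI1, an inhibitor of the ligase) fell by 1.35, 2.59 and 1.52 on the log2 scale.

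**Figure D2:**
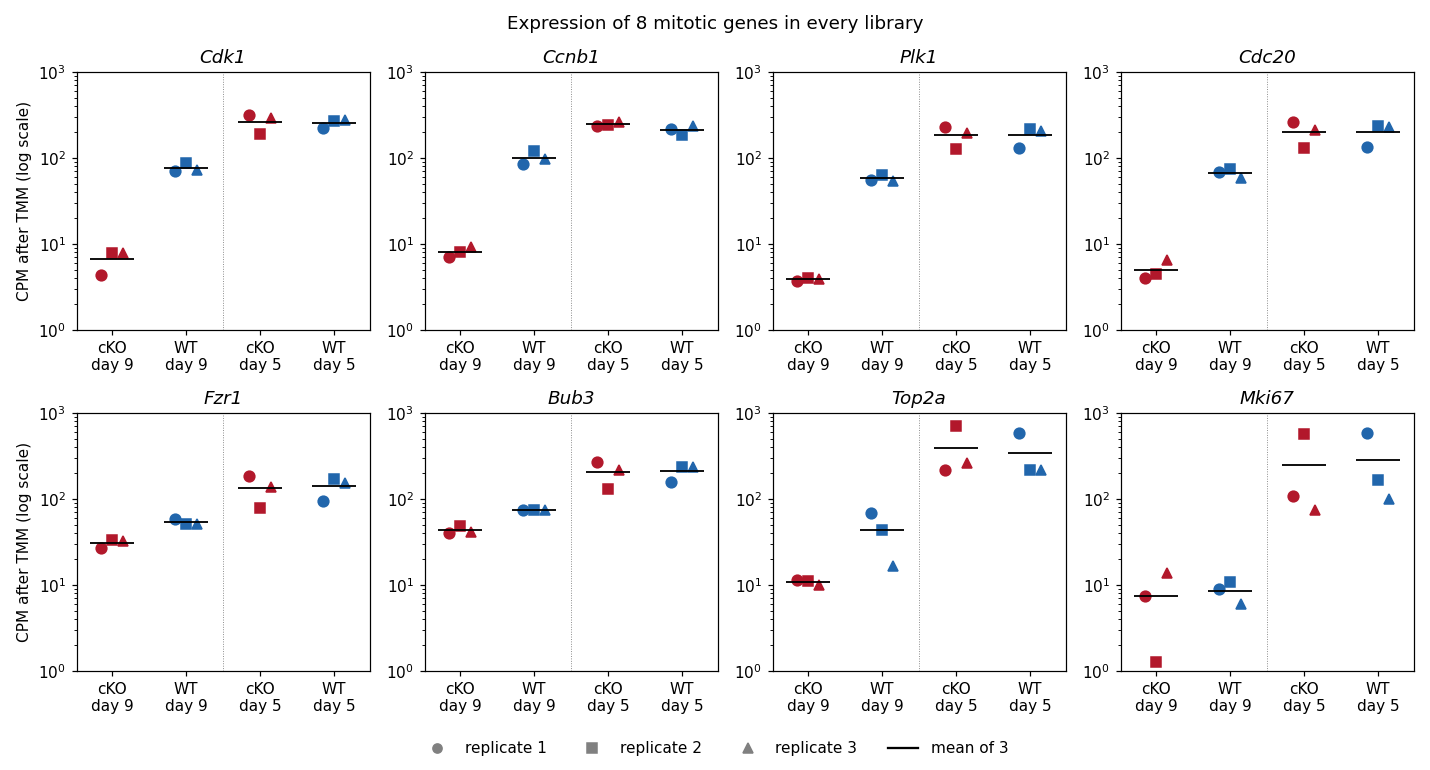
CPM after TMM on a log axis (y axis) for 8 genes in every library, with groups on the x axis (cKO left of WT, day 9 then day 5), red for cKO and blue for WT, a symbol per replicate number and a line at the mean of 3 libraries. Cdk1, Ccnb1, Plk1 and Cdc20 lie at 3.74 to 9.29 CPM in cKO at day 9 and 53.7 to 119 CPM in WT, Fzr1 and Bub3 lie closer together, and Mki67 overlaps between the groups; the 2 days come from separate tables.

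Condensin and chromosome structure genes were the mixed group at day 9, with 5 of 10 lower and a median log2 fold change of -1.25. Ncapd2, a condensin I subunit, had 34.1, 35.5 and 39.3 CPM in cKO, against 169, 189 and 169.9 CPM in WT (-2.28 ± 0.11, adjusted p = 8.47e-06). Ncaph, the kleisin that closes the condensin I ring, had 4.21, 5.03 and 6.33 CPM in cKO, against 29.3, 41.6 and 31.5 CPM in WT (-2.72 ± 0.20, adjusted p = 4.65e-05). The groups lay far apart for both. Cdca2, which brings a phosphatase to anaphase chromosomes, fell by 2.71 on the log2 scale. Top2a, the topoisomerase that untangles sister chromatids, had 11.5, 11.2 and 9.99 CPM in cKO, against 69, 43.9 and 16.6 CPM in WT. Its cKO libraries were nearly equal while its WT libraries spread widely, without overlap (-1.98 ± 0.52, adjusted p = 0.0284). Without cKO replicate 1, 2 or 3 or WT replicate 2 the call was lost, at -1.93 to -2.02 with adjusted p from 0.0715 to 0.108. Ncapg, another condensin I subunit, was called at -1.58 ± 0.54 (adjusted p = 0.0492) but lost the call without any of the libraries except WT replicate 3, at -1.10 to -1.81 with adjusted p from 0.0868 to 0.197.

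The ATPase subunits shared by both condensins did not follow the rest. Smc2 (chromosome 4, 52439243 to 52488260) had 5.46, 1.73 and 5.49 CPM in cKO day 9 libraries, against 2.6, 2.26 and 1.13 CPM in WT, and Smc4 (chromosome 3, 69004738 to 69034623) had 7.79, 1.38 and 9.01 CPM in cKO, against 2.35, 2.83 and 1.8 CPM in WT. For both, cKO replicates 1 and 3 lay above every WT library and cKO replicate 2 lay within or below the WT range. Neither passed the test (1.02 ± 0.52, adjusted p = 0.144, and 1.31 ± 0.68, adjusted p = 0.162). Without cKO replicate 2, both were called higher (1.44, adjusted p = 0.00859, and 1.84, adjusted p = 0.000344), and without cKO replicates 1 and 3 the sign turned and neither passed (-0.23, adjusted p = 0.763, and -0.78, adjusted p = 0.186). Replicates 1 and 3 are the cKO libraries with 69.69% and 68.33% structural RNA, and the part of that in these values was not tested.

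Mki67 (chromosome 7, 135689784 to 135716361) also differed between cKO libraries, with 7.48, 1.28 and 13.8 CPM in cKO day 9 libraries, against 8.96, 10.9 and 6.02 CPM in WT. The cKO values spanned the whole WT range, and the test did not call it (-0.28 ± 0.84, adjusted p = 0.807). Compared with WT, cKO replicate 2 alone gave -2.78 (adjusted p = 0.0056, in a fit where the lone library is assumed to vary like the others). Of the condensin II subunit genes, Ncapd3 and Ncapg2 were not called, while Ncaph2, counted below among the other mitotic genes, was lower (-1.06 ± 0.12, adjusted p = 0.000325). Ncapd3 had 18.4, 18.1 and 19.3 CPM in cKO, against 20.2, 25.2 and 16.6 CPM in WT (-0.15 ± 0.16, adjusted p = 0.468), so the cKO libraries lay inside the WT range. Ncapg2 had 1.71, 2.24 and 3.24 CPM in cKO, against 7.29, 4.66 and 1.57 CPM in WT (-0.92 ± 0.57, adjusted p = 0.223), and it was called lower without WT replicate 3 (-1.34, adjusted p = 0.0175).

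Spindle and cytokinesis genes fell in 7 of 7 cases at day 9, with a median log2 fold change of -2.67. Tpx2, which activates Aurora A on the spindle, had 12.3, 11.1 and 12.5 CPM in cKO, against 78.4, 110.3 and 86.5 CPM in WT (-2.94 ± 0.15, adjusted p = 1.07e-05). Prc1, which bundles microtubules at the midzone, had 9.35, 8.62 and 10.4 CPM in cKO, against 55, 73 and 52 CPM in WT (-2.67 ± 0.17, adjusted p = 2.24e-05). Psrc1, a microtubule-binding protein gene, had 7.48, 8.85 and 6.75 CPM in cKO, against 38.5, 44.1 and 36.7 CPM in WT (-2.35 ± 0.15, adjusted p = 2.55e-05). The groups lay apart for each. Gtse1 fell by 3.38 on the log2 scale, and Ect2, the activator of RhoA at the division plane, by 2.67. Nusap1 and Anln fell by 2.41 and 1.74. The calls of Ect2, Nusap1 and Anln were lost without cKO replicates 1 and 3 together (-2.48, -2.15 and -1.72, adjusted p = 0.0952, 0.0913 and 0.175).

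Both transcription factor genes fell at day 9. Foxm1 (chromosome 6, 128362967 to 128376146) had 8.11, 8.12 and 10.7 CPM in cKO, against 62.2, 84.8 and 64.2 CPM in WT (-2.98 ± 0.18, adjusted p = 1.88e-05). Mybl2, which encodes B-MYB, had 2.81, 2.54 and 3.94 CPM in cKO, against 13.6, 16.6 and 12.2 CPM in WT (-2.23 ± 0.22, adjusted p = 0.000187). Neither gene's groups overlapped.

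Levels of different genes can be set side by side only per transcript length, for which the deposited TPM values were ranked within each library. Ube2s had the highest TPM of the 50 genes in all 12 libraries. In the WT day 9 libraries Cdk1 and Cdca3 ranked between 2 and 4, with 124 to 134 TPM for Cdk1 and 126 to 132 TPM for Cdca3, which do not differ beyond their spread. In the cKO day 9 libraries the order was Ube2s, Bub3, Fzr1 and Ncapd2 in each of the 3 libraries. Of these, Ube2s, Bub3 and Fzr1 had small falls among the genes called, and Ncapd2 fell by 2.28 on the log2 scale. Other genes with small changes ranked lower in cKO at day 9, such as Ncapd3 (14 to 23) and Mki67 (37 to 50).

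At day 5 none of the 50 genes passed the test in either direction, while 1 of all 14849 genes tested did (0.00673%), Lmnb1 itself. Lmnb1 passed narrowly despite its large fall (-2.68 ± 0.20, edgeR adjusted p = 0.0493), so lack of a call at day 5 does not show lack of change. The coefficient of variation between replicates, common to all genes in the fit, was 0.405 at day 5 and 0.267 at day 9. The log2 fold changes of the 50 genes ran from -0.27 to 0.39 with a median of 0.11. That median was 0.01 for all genes, and 41 of the 50 were positive. An unadjusted p under 0.05 was found for 0 of the 50 genes and for 89 of all 14849, and 0 were called in each alternative test that was run, with any library left out included. The 5 with the smallest p were Wee1, Ccnb1, Ccna2, Ncaph and Aurkb. Wee1 had 15.2, 22.6 and 22.2 CPM in cKO day 5 libraries, against 16.7, 13.7 and 17.3 CPM in WT (0.33 ± 0.26, adjusted p = 1). Ccnb1 had 232, 240.2 and 264 CPM in cKO, against 215, 186 and 233 CPM in WT (0.21 ± 0.19, adjusted p = 1). Both overlapped between the groups, as did the next 3. Ccna2 had 147, 249 and 212 CPM in cKO, against 219.6, 129 and 151 CPM in WT (0.29 ± 0.30). Ncaph had 96.5, 103 and 106 CPM in cKO, against 103, 81.1 and 83.1 CPM in WT (0.19 ± 0.20), and Aurkb had 105, 83.5 and 109 CPM in cKO, against 79.7, 93.7 and 87.2 CPM in WT (0.19 ± 0.21). The groups did not overlap for Incenp and Bub1b, with cKO higher, 2 of 50 genes against 1.5% of all genes tested. Incenp had 155, 147 and 154 CPM in cKO at day 5, against 131, 144 and 134 CPM in WT (0.16 ± 0.18).

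The change at day 9 differed from that at day 5 for 34 of the 50 genes, all toward lower, in a fit of all 12 libraries that tests the day 9 change minus the day 5 change. Of all 15327 genes in that fit 7.76% were called, 5.17% toward lower and 2.58% toward higher. The median difference of the 50 was -2.67 on the log2 scale. All 10 CDK1 and cyclin genes, all 4 passenger complex genes and both transcription factor genes were among the 34, as were 3 of 4 Polo, Aurora A and NIMA kinase genes and 5 of 7 spindle genes. The other groups had fewer, with 5 of 8 exit regulators, 2 of 5 checkpoint genes and 3 of 10 condensin and chromosome genes. Cdca3 had the largest difference (-4.06 ± 0.37, adjusted p = 8.71e-05), while Bub3 (-0.74 ± 0.34, adjusted p = 0.268), Fzr1 (-0.73 ± 0.40, adjusted p = 0.375) and Top2a (-2.20 ± 0.85, adjusted p = 0.18) were not called. No level was set against that of the other day, because each day has its own deposited table and day and table cannot be told apart.

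Libraries of the same group differed for a recurring subset of the genes. At day 5, 13 genes (Plk4, Bub1, Ttk, Fbxo5, Smc2, Smc4, Ncapg, Ncapg2, Top2a, Mki67, Nusap1, Anln and Ect2) averaged at least 2-fold more CPM in cKO replicate 2 and WT replicate 1 than in the other 4 libraries, as did 19.4% of all genes tested. Mki67 had 107, 566 and 74.3 CPM in the cKO day 5 libraries, against 591, 167 and 101 CPM in WT, and Top2a had 214, 709 and 263 CPM in cKO, against 586, 218 and 216 CPM in WT. A high library thus sat in each group. Plk1 ran the other way, with 231, 126 and 194 CPM in cKO, against 129, 214 and 204 CPM in WT. At day 9, 10 genes had a highest WT library at least 2 times the lowest, against 7.97% of all genes tested with a WT mean of at least 1 CPM. All 10 were among the 13, and they include Top2a, Ttk, Plk4 and Ncapg, whose day 9 calls were lost on leaving out single libraries. Of the 13, Smc4, Mki67 and Fbxo5 stayed under that WT ratio at day 9 (1.57, 1.8 and 1.74).

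These subsets differ in base composition, which was not used to choose them. The 13 genes had a median transcript GC of 42.1% (39.7% to 46.6%), against 50.4% (40.1% to 59.9%) for the other 37, taking the longest GENCODE M21 transcript of each gene. Across the 50 genes, transcript GC and the day 5 ratio of those 2 libraries to the other 4 had a Pearson r of -0.76 and a Spearman rho of -0.75, and transcript GC and the ratio of WT replicate 1 to WT replicate 3 at day 9 had an r of -0.57 and a rho of -0.40. The day 5 ratio and that day 9 ratio had an r of 0.72 and a rho of 0.34 with each other. Transcript GC and the day 9 log2 fold change had an r of -0.38 and a rho of -0.36. Transcript length and that change had an r of 0.42 and a rho of 0.38. Length and the day 5 ratio had an r of 0.49 and a rho of 0.49, and the part of length was not tested. These describe 50 genes of the same libraries, which are not independent. When the fit carried offsets by transcript GC for each library, an alternative chosen after the data were seen, 45 of the 50 genes were again lower at day 9 and the Smc2 and Smc4 values moved to 0.03 (adjusted p = 0.96) and 0.35 (adjusted p = 0.667). Mki67 remained not called (-0.39, adjusted p = 0.728).

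**Figure D3:**
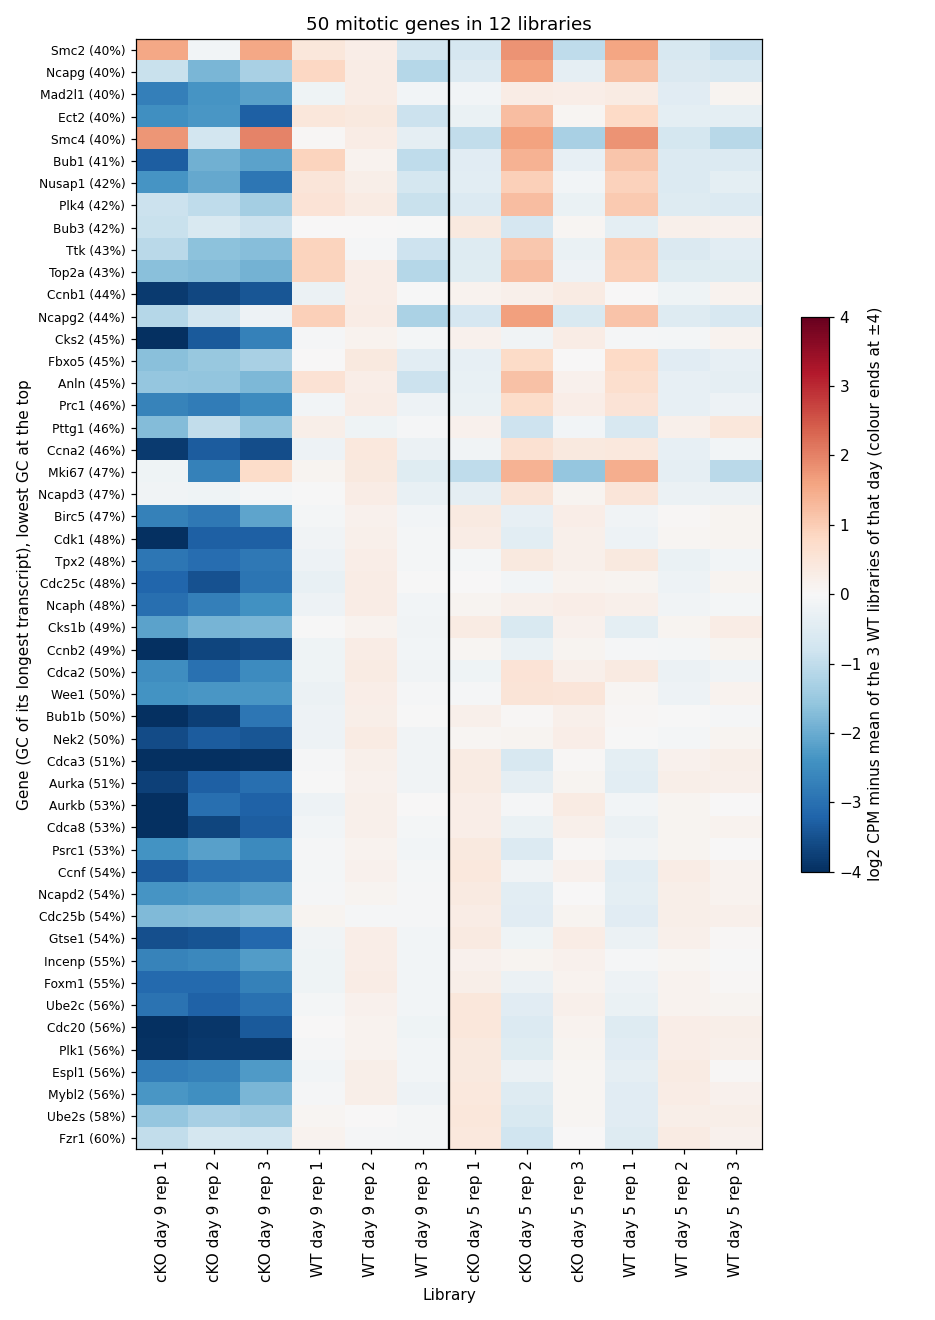
Heat map of the 50 genes (rows, ordered by transcript GC with the lowest at the top) in 12 libraries (columns, cKO left of WT at each day), coloured by log2 CPM minus the mean of the 3 WT libraries of that day. The cKO day 9 columns are blue in most rows, while Smc2 and Smc4 are red in cKO replicates 1 and 3 and Mki67 in cKO replicate 3, and low GC rows are red in cKO replicate 2 and WT replicate 1 at day 5.

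**Figure D4:**
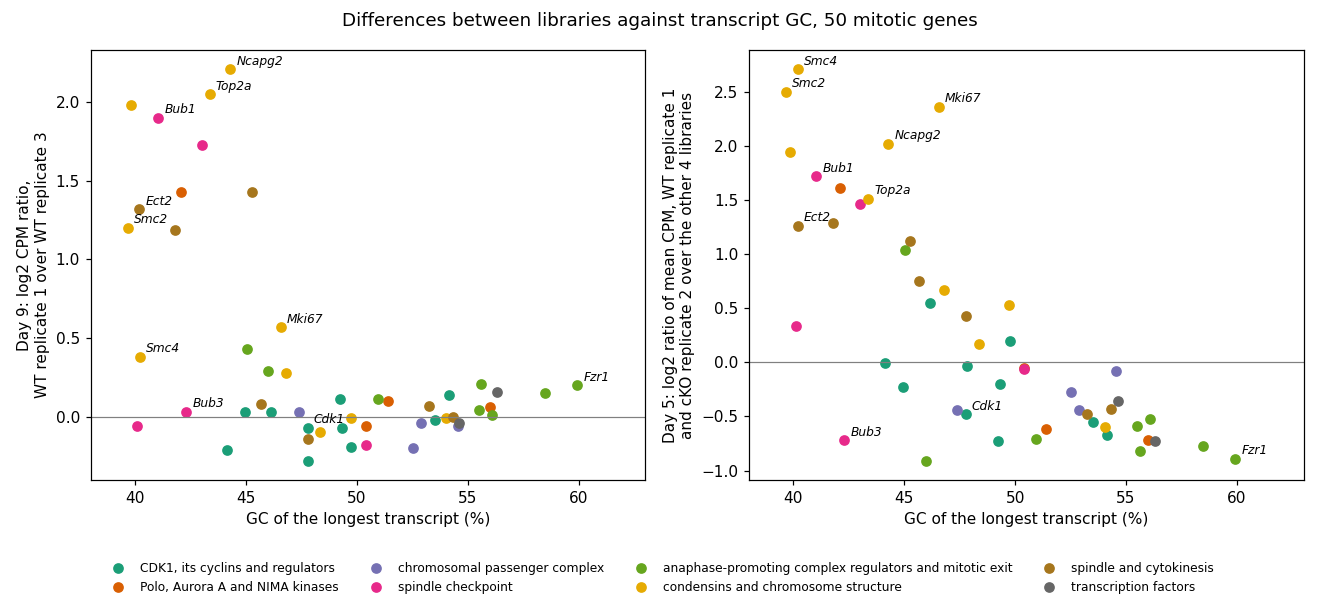
Transcript GC in percent (x axis) of the 50 genes against the log2 ratio of WT replicate 1 to WT replicate 3 at day 9 (left) and the log2 ratio of cKO replicate 2 and WT replicate 1 to the other 4 libraries at day 5 (right), a point per gene coloured by role. Smc2, Smc4 and Ncapg2 lie among the highest points on the right at a GC under 46.6%, and Fzr1, with the highest GC of 59.9%, lies below 0 there.

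Other mitotic genes were less uniform. Of 71 such genes, taken from 5 lists of related complexes, 32 were lower and 10 higher in cKO cells at day 9. Among all genes tested at that day, 22.6% were lower and 21% higher. The median log2 fold change of the 71 was -0.32. Spindle and cytokinesis genes outside the 50 were lower in 14 of 18 cases and higher in 1, with a median of -1.79. The higher one was Ckap5 (1.56 on the log2 scale), whose call was lost under 9 of 20 alternatives. Pimreg, a mitotic regulator of the metaphase to anaphase transition, averaged 2.14 ± 0.524 CPM in cKO and 45.9 ± 3.14 CPM in WT (SD, n = 3 each), a fall of 20.7-fold (edgeR adjusted p = 6.58e-06). Knstrn, a kinetochore and spindle protein gene, averaged 5.15 ± 0.274 CPM in cKO and 75.1 ± 15.1 CPM in WT, a fall of 14.7-fold. Among mitotic kinases and phosphatases 7 of 18 were lower and 2 higher (Ppp2r2a and Cdk7), against 43.6% called in either direction among all genes tested. Pbk fell by 3.76 and Haspin, which phosphorylates histone H3 at centromeres, by 3.10 on the log2 scale.

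The core subunits of the anaphase-promoting complex were tested as their own list. Of 14 subunit genes 7 were lower and 0 higher, with a median of -0.23, and those with the smallest adjusted p included Anapc15 (-0.96 ± 0.12, adjusted p = 0.000681) and Anapc5 (-0.68 ± 0.10, adjusted p = 0.00134). Cohesin and its regulators were split, with 3 of 15 lower, near the 22.6% of all genes tested, and 6 higher, against 21%. Cdca5, which encodes sororin, fell by 3.20 and Sgo1, which protects centromeric cohesin, by 2.28 on the log2 scale. The higher ones were the cohesin subunits Smc3 (2.31 ± 0.61) and Stag2 (1.99 ± 0.53), the loader Nipbl (2.82 ± 0.80), Wapl (1.60 ± 0.46), Pds5b (1.44 ± 0.45) and Esco1 (2.28 ± 0.50). The calls of these 6 were lost under many alternatives. Nipbl lost its call under 14 of 20, Pds5b under 11, Smc3, Stag2 and Wapl under 9 each, and Esco1 under 7 of 19. Without cKO replicates 1 and 3 together, the log2 fold changes shrank to between 0.56 (Nipbl) and 1.17 (Stag2). Of 6 MuvB and MYB partners, Rbbp4 fell by 0.51 on the log2 scale. Mybl1, which encodes A-MYB, rose (3.84 ± 0.52, adjusted p = 0.00292, and 3.02 without cKO replicates 1 and 3). Its call was lost under 2 of 20 alternatives, with log2 fold changes from 1.97 to 4.37 over them all. The Mybl1 rise stood beside the fall of its relative Mybl2. At day 5 none of the 71 was called, at a day when 1 of all 14849 genes tested was. In the day difference 16 were called, all toward lower, against 5.17% toward lower and 2.58% toward higher among all genes tested.

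Markers of cell types moved at day 9 beside the mitotic genes. Their counts stand against 22.6% lower and 21% higher among all genes tested at that day. Of 10 neural progenitor markers 6 were lower and 1 higher, with a summed level of 1769 to 1981 CPM in cKO and 3336 to 3741 CPM in WT. Nes, the progenitor filament gene, averaged 77.1 ± 10.6 CPM in cKO and 302 ± 51.2 CPM in WT (SD, n = 3 each), while Sox2 averaged 261 ± 21.1 CPM in cKO and 248 ± 30.1 CPM in WT (edgeR adjusted p = 0.649). Astrocyte markers were higher in 8 of 10 cases (3225 to 3922 CPM in cKO and 1959 to 2279 CPM in WT) and oligodendrocyte lineage markers in 8 of 10, with 2 lower (2889 to 3675 CPM in cKO and 739.9 to 952 CPM in WT). Neuron markers were higher in 5 of 9 cases (524 to 587 CPM in cKO and 129 to 296 CPM in WT). Microglial markers summed to at most 2.25 CPM in any day 9 library, endothelial markers to at most 3.94 CPM and mural markers to at most 3.38 CPM, with Aif1, Cdh5 and Lum at 0 in every one. Of these, 1 of 8 microglial markers could be tested and was not called, and of the 2 testable endothelial and the 2 testable mural markers 1 each was lower and 1 each higher. At day 5 no marker of any of these lists was called, at a day when 1 of all 14849 genes tested was. All 8 oligodendrocyte lineage markers tested then had negative log2 fold changes, with a median of -0.59. That list summed to 249 to 349.6 CPM in cKO and 428 to 505 CPM in WT at day 5. The summed levels of the other lists overlapped between the groups at that day. The part of the day 9 cell type changes in the fall of the mitotic genes was not tested.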

How the data were processed

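RNA was measured by sequencing in 12 libraries. The authors deposited RSEM expected counts per gene and, separately, TPM values (abundance per transcript length, relative to the library's total), with a table per day. Per the submitters' processing notes, the tools were Bowtie2 and RSEM and the build was mm10. Reads were single-end per the file headers. Not given in the sources used here are gene annotation, trimming and strandedness, so reads of overlapping antisense genes cannot be told apart, and genes with near-identical copies or pseudogenes are uncertain in level.

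Expected counts were rounded, filtered with filterByExpr, scaled with TMM and tested with edgeR 4.0.16 (R 4.3.3). The test was a robust quasi-likelihood fit with Benjamini-Hochberg adjustment over all genes tested and a threshold of 0.05. Separate fits were made for each day, cKO against WT with 3 libraries per group, and the day difference on all 12 libraries over the 41596 symbols that each table lists once. A log2 fold change is cKO minus WT and stands with its SE. All 50 genes passed the count filter at both days. Totals of 13315273 to 32127629 counts, and fewer outside structural RNA, limit the precision of genes at a few CPM, and the SE covers the spread of 3 libraries. The scripts were tested on simulated data.

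The genes, their role groups, the 5 lists of other mitotic genes and the markers were chosen with earlier results of these data known. Values in every library are given for up to 3 genes per role group with the highest mean CPM at day 9, all genes not called, the 2 largest and 2 smallest changes among those called and the 5 smallest p at day 5. Of the other mitotic genes, the 2 with the smallest adjusted p of each list and every one called higher are named. Cdc20, Ncaph2, Nes, Sox2 and the promoters shown were chosen after their values were seen. Promoters are RefSeq windows on GRCm38.p6, and gene positions and transcript GC come from GENCODE M21. Alternatives used DESeq2 1.42.0, limma 3.58.1 (voom, and log2 TPM with pseudocount 1 or 0.1), other scalings and filters, a replicate block, libraries left out, and, chosen after seeing the data, GC offsets in 20 bins and TPM after TMM.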

Additional observations from a re-analysis of the deposited data

Results flagged for a closer look

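The change in cKO against WT cells differed between day 9 and day 5 for 34 of the 50 genes, tested on all 12 libraries (edgeR's quasi-likelihood test, adjusted p from 2.04e-05 to 0.0303). Each value is the day 9 change less the day 5 change on the log2 scale, and each is negative. For CDK1, its cyclins and regulators the differences were Cdk1 (-3.54), Ccna2 (-3.84), Ccnb1 (-3.84), Ccnb2 (-3.84), Ccnf (-3.21), Cdc25b (-1.70), Cdc25c (-3.23), Wee1 (-2.68), Cks1b (-1.92) and Cks2 (-3.40). Polo, Aurora A and NIMA kinase genes gave Plk1 (-3.90), Aurka (-3.33) and Nek2 (-3.59). In the chromosomal passenger complex they were Aurkb (-3.55), Incenp (-2.66), Birc5 (-2.67) and Cdca8 (-3.71). Spindle checkpoint genes gave Bub1b (-3.72) and Mad2l1 (-2.53). Regulators of the anaphase-promoting complex and of exit gave Cdc20 (-3.78), Ube2c (-3.17), Ube2s (-1.43), Espl1 (-2.66) and Cdca3 (-4.06). Condensin and chromosome genes gave Ncapd2 (-2.29), Ncaph (-2.90) and Cdca2 (-2.87). For spindle and cytokinesis genes they were Tpx2 (-3.09), Prc1 (-2.93), Ect2 (-3.07), Gtse1 (-3.54) and Psrc1 (-2.36). The transcription factor genes gave Foxm1 (-3.02) and Mybl2 (-2.22). Of the 34 calls, 10 kept call and direction under every alternative that tested them and 24 lost the call under at least 1. With every library left out in turn, and without cKO replicate 2 and WT replicate 1 of day 5 together or cKO replicates 1 and 3 of day 9 together, 27 were kept. Ube2s lost its call without each library other than cKO replicate 2 and WT replicate 3 of day 5, including without cKO replicate 1 of day 9 (-1.42, adjusted p = 0.116), and Ect2 without cKO replicate 1 (-3.13, adjusted p = 0.0534), 2 or 3 or WT replicate 1 or 2 of day 9 and WT replicate 2 or 3 of day 5 (adjusted p up to 0.0755). Cdc25b, Cks1b, Mybl2, Ncapd2 and Psrc1 lost theirs without cKO replicates 1 and 3 of day 9 together (adjusted p = 0.174, 0.166, 0.0815, 0.054 and 0.0545).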

How the results depend on the processing

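At day 9, 29 of the 45 genes called lower kept call and direction under every alternative that tested them, and 37 with every library, and cKO replicates 1 and 3 together, left out. The count of genes lower ranged from 32 (log2 TPM + 0.1) to 46. Without cKO replicate 2 of day 9, 2 were called higher (0 to 2 over single libraries left out). The median was -2.86 on log2 TPM + 1 and -3.38 on log2 TPM + 0.1. It was -2.81 on TPM rescaled without structural RNA and -1.99 on TPM after TMM. The first 3 scales moved the median of all genes to -0.79, -1.02 and -0.71. They left 33, 32 and 42 of the 50 genes called lower, and Bub3 and Fzr1 were among those not called on any of them. Cdc25b, Cks1b, Ube2s, Pttg1, Fbxo5 and Ncapd2 each lost their day 9 call under 2 of the alternatives. On these 3 scales Ppp2r2a (-0.27, -0.30 and -0.12) and Cdk7 (-0.32, -0.44 and -0.22) turned negative. All genes called at day 9 numbered 573, 687 and 1419 on the 3 TPM scales, 3344 without cKO replicates 1 and 3, and 4063 to 7507 with a library left out. At day 5, 9 genes were called by DESeq2, 2 by limma-voom, 3, 3 and 2 on the TPM scales, 2 on TPM after TMM, 19 without cKO replicate 2 and WT replicate 1, and 0 with no filter, the replicate block, GC offsets, both, or any library left out; the median of the 50 genes was -0.02 and -0.01 on log2 TPM + 1 and + 0.1. For the day difference, 10 genes were lower on log2 TPM + 1; the medians were -2.88 and -3.46 on log2 TPM + 1 and + 0.1, -2.19 on TPM after TMM and -2.91 to -2.58 with a library left out. All genes called there numbered 47, 223 and 467 on TPM, 324 with the block, 2288 with GC offsets, 2541 and 456 without the day 5 and day 9 library pairs, and 758 to 2422 with a library left out. The causes were not tested. Equal replicate numbers did not pair libraries (correlations of deviations -0.001, -0.2 and -0.063 at day 9, and -0.721, -0.498 and 0.534 at day 5); with the replicate block 45 genes were lower at day 9 and 29 in the day difference. Genes at a few CPM in cKO are limited by depth.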
